A study of Mus musculus with 23 samples.

Results

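The 46 genes described here encode lysosomal hydrolases and their activators, lysosomal membrane proteins, the proton pump of the lysosome and 3 transcription factors of lysosomal genes. The list was drawn up with earlier results of these data known, although no measured value entered the rule. Its genes were taken from the 53090 genes of the deposited tables by symbol alone. Among them, 14 encode glycosidases or sulfatases, 9 encode lipid or protein hydrolases or activators of these enzymes, 11 encode membrane proteins, 9 encode subunits or accessory proteins of the pump, and 3 encode transcription factors. All 46 passed the filter on low counts, which 18720 genes passed. Lysosomes are acidic organelles in which lipids, glycans and proteins are broken down, and microglia, the resident phagocytes of the brain, send engulfed myelin, debris and dying cells to them. The vacuolar proton pump acidifies the lumen, soluble hydrolases work at that acidity, and highly glycosylated membrane proteins line the organelle. The factors Tfeb, Tfe3 and Mitf bind an E-box type motif near the start of many lysosomal genes, and inherited loss of single hydrolases causes lysosomal storage diseases that often affect the brain.

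Poly(A) RNA of microglia from female C57BL/6 mice was sequenced in bulk. The groups were young (Y, 7 libraries), young repopulated (Y-re, 3 libraries), old (O, 5 libraries) and old repopulated (O-re, 8 libraries). For repopulation, microglia were first depleted with PLX5622, an inhibitor of the receptor CSF1R on which microglia depend, mixed into AIN-76A chow at 1200 ppm, and treatment controls had the same chow without the drug. Neither ages nor the lengths of treatment and repopulation are given in the sources used here. Magnetic CD11b selection followed by culture and cell sorting with FACS both appear in the protocols, and the RNA steps refer to FACS-sorted cells. Whether each library is 1 animal is not given either, so p-values measure only the spread between these libraries, which may be technical.

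Stretches around the E-box letters are shown for 4 members, because their promoters hold letters of the kind that the 3 transcription factors bind: Sgsh, the member that passed the test in the most comparisons, Lamp1, which holds 4 copies, and the pump genes Atp6v0d1 and Atp6v1a. Capitals mark TCACGTG or its reverse complement CACGTGA, and the letters are from RefSeq (build GRCm38.p6), 5′ to 3′ on the strand of the gene.
Sgsh, chr11:119355521-119355551, minus strand: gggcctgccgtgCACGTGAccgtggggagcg
Lamp1, chr8:13159087-13159163, plus strand: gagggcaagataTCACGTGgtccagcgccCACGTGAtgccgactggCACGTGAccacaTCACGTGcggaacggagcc
Atp6v0d1, chr8:105566049-105566080, minus strand: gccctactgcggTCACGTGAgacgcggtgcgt
Atp6v1a, chr16:44139372-44139403, minus strand: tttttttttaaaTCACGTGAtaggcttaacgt
In both pump genes the capitals run on to the 8-letter palindrome TCACGTGA. Promoter windows from 250 bases before to 50 bases after a start were on hand for 42 of the 46 members. Searched on both strands, CACGTG stood in the windows of 11 members (26.2%), against 8.09% of 27025 genes. All 11 also held the longer TCACGTG, found in 4.29% of genes, and 5 of them (11.9%), Atp6v0d1, Atp6v1a, Cln3, Gla and Mcoln1, held TCACGTGA, found in 1.12%. Each longer word contains the shorter ones, so these counts overlap, and a match is a description of the letters and not of binding.

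Summed expected counts per library were 43.93 to 47.85 M in Y and 44.90 to 47.77 M in Y-re, where M stands for 1000000. They were 43.66 to 50.98 M in O and 45.73 to 58.19 M in O-re. Each title carries a library number, of which 5 is absent, and nothing in the titles marks a break between 11 and 12. The numbers were divided here into 2 runs at 12, where the order of groups starts again with Y. The first run, 1 to 11, holds 3 Y, 2 O and 5 O-re libraries. The second run, 12 to 24, holds 4 Y, 3 Y-re, 3 O and 3 O-re libraries. Genes with a count numbered 16399 to 19953 per library in the first run. In the second run they numbered 20099 to 22208, except for 17620 in Y-re replicate 2. What the numbers stand for is not given in the sources used here, and young repopulated libraries occur only in the second run. Y replicate 3 stood apart on the second principal component of all genes, at −185 against −20.1 to 30.6 in the other libraries, and without it O-re against Y called 6 members in place of 7. On the first component (21.1% of the variance) Y ran from −90.5 to −30.2. O-re replicate 1 was within that range at −58.1, with the other O-re libraries at −15.0 to 113, and O replicate 1 was within it at −54.1. The summed level of 10 microglial marker genes was 18328 to 22600 counts per M (CPM) in Y, 15874 to 18473 in Y-re, 7437 to 18682 in O and 6902 to 21132 in O-re, and 4 of the 10 were called lower in O-re than in Y. Monocyte markers summed to 278 to 1552 CPM in Y, 631 to 1109 in Y-re, 462 to 4018 in O and 356 to 7326 in O-re, and 5 of the 7 were called higher in O than in Y and in O-re than in Y. Neutrophil markers summed to 10.3 to 81.9 CPM in Y, 64.7 to 149.6 in Y-re, 82.1 to 209 in O and 66.6 to 298 in O-re, and 4 of 7 were called higher in each of the same comparisons. Of the markers of border-associated macrophages, which summed to 1004 to 1641 CPM in Y, 1297 to 1485 in Y-re, 1159 to 1731 in O and 615 to 2695 in O-re, 1 of 7 was called higher in O than in Y and 4 in O-re than in Y. Dendritic cell markers summed to 4.44 to 8.75 CPM in Y, 11.9 to 25.9 in Y-re, 9.02 to 61.7 in O and 7.15 to 38.6 in O-re, and 2 of 5 were called higher in O and in O-re, and 1 in Y-re, each against Y. Lymphocyte markers summed to at most 1.48 CPM in any library. The part of other cell types in the results below was not tested, and in bulk samples fewer cells of a type and less RNA per cell cannot be told apart.

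Lysosomal genes stood among the strongly expressed genes of these microglia. In transcripts per M (TPM), which allow for transcript length and so let genes be compared, the 46 members together took 2.17% ± 0.138 (SD, n = 7) of the total in Y, 2.25% ± 0.168 (n = 3) in Y-re, 2.24% ± 0.113 (n = 5) in O and 2.15% ± 0.218 (n = 8) in O-re. These shares differed by less than the SD within groups. By mean TPM over the 23 libraries, 30 members lay in the top 10% of the 18720 genes tested and 8 in the top 1%. The most abundant was Psap, the precursor of the saposins that present sphingolipids to their hydrolases, at a mean of 4729.7 TPM. It was followed by Grn, which encodes progranulin, at 3363 TPM, the membrane protein Laptm5 at 1893 TPM, the tetraspanin Cd63 at 1401 TPM and the membrane glycoprotein Lamp1 at 1378 TPM. Glycosidases and sulfatases ranged from 13.3 TPM for Sgsh to 1030.4 TPM for Hexa, with a median of 83.9 TPM. Pump genes ranged from 2.01 TPM for Atp6v0d2 to 859.6 TPM for Atp6v0c, which forms the membrane ring of the pump. Atp6v0d2 was the one member below the median of the 18720 genes tested. Among the transcription factors Tfe3 had the highest level at 82.0 TPM, followed by Tfeb at 32.7 TPM and Mitf at 16.8 TPM. The median coefficient of variation over the 45 members other than Atp6v0d2 was 10.2% in Y, 8.13% in Y-re, 12.6% in O and 16.9% in O-re. Gla, which encodes alpha-galactosidase A, varied most of these 45 in every group, from 20.1% in Y to 45.3% in O-re.

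**Figure D1:**
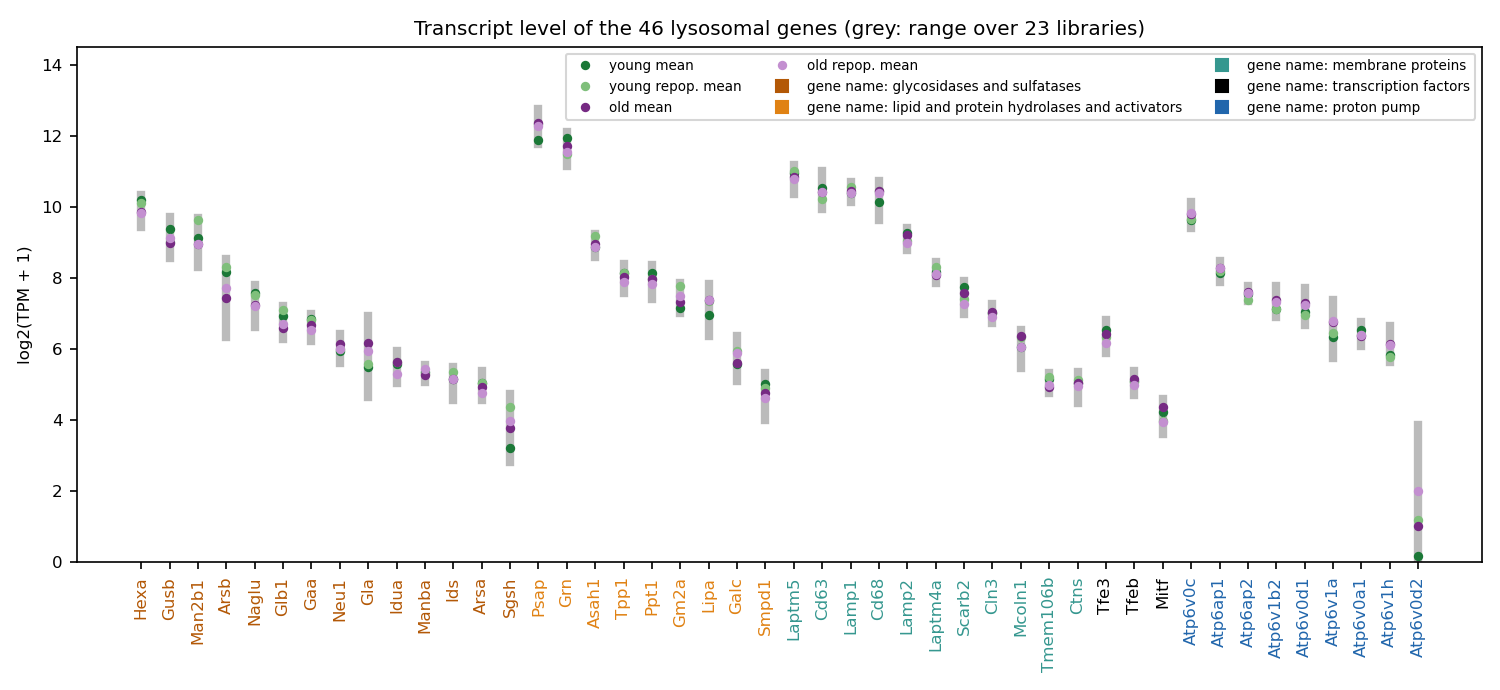
Level of each of the 46 members as log2(TPM + 1): points are the means of the 4 groups and grey bars span all 23 libraries. Psap has the highest mean level and Atp6v0d2 the lowest, and the group means of most members lie close together.

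Of the 46 members, 7 were called in at least 1 comparison and 39 in none, a call being a Benjamini-Hochberg adjusted p under 0.05 in edgeR's quasi-likelihood test over all 18720 genes. Fold changes below are log2 values with their standard error (SE), and levels are CPM scaled by the TMM method. The comparison of age, O against Y, called 1 member, Sgsh, which was higher (2.17% of members, against 2.83% of all genes called and 2.6% called higher). Repopulation in young mice, Y-re against Y, called 2 members, Sgsh and Gm2a, both higher (4.35%, against 1.34% of all genes called and 0.828% called higher). Repopulation in old mice, O-re against O, called 0 members (0.278% of all genes were called, 0.0641% higher and 0.214% lower). An unadjusted p under 0.05 in edgeR was found for 6 of the 46 members, against 10.4% of all genes. DESeq2 called 0 and limma's voom called 1 (2.21% of all genes for each of these tools). O-re against Y called 7 members (15.2%, against 15.2% of all genes), 4 of them higher (9.29% of genes) and 3 lower (5.92%). O-re against Y-re called 0 members (0% of all genes), with 10 of 46 at an unadjusted p under 0.05 in edgeR (11.7% of all genes). There 0 were called by DESeq2 (0.433% of all genes) and 15 by voom (17% of all genes). The interaction, which asks whether repopulation acted differently in old and young mice, also called 0 members (0% of all genes). For it 5 of 46 had an unadjusted p under 0.05 in edgeR (8.24% of all genes), 1 was called by DESeq2 (0.285% of all genes) and 3 by voom (0.807%). With 1 library left out at a time, the number of members called ran from 0 to 4 in O against Y, from 2 to 4 in Y-re against Y and from 5 to 19 in O-re against Y, the 19 arising without O-re replicate 1. These were 41.3% of members, against 25.7% of all genes in that fit. Of them, 15 were higher (15.7% of genes) and 4 lower (9.95%), and they held 6 of the 7. O-re replicate 1 lay within the range of Y on the first principal component. The 3 comparisons against Y share the young libraries, and so their values for a member are not independent. Median fold changes of the 46 members were −0.02 in O versus Y (−0.01 for all genes), 0.07 in Y-re versus Y (−0.04) and 0.07 in O-re versus O (0.00). They were 0.01 in O-re versus Y (−0.02), −0.11 in O-re versus Y-re (0.05) and −0.02 in the interaction (0.03). In O-re versus Y-re, 18 of the 46 members were above 0. Medians by role ran there from −0.26 for glycosidases and sulfatases to 0.23 for pump genes.

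**Figure D2:**
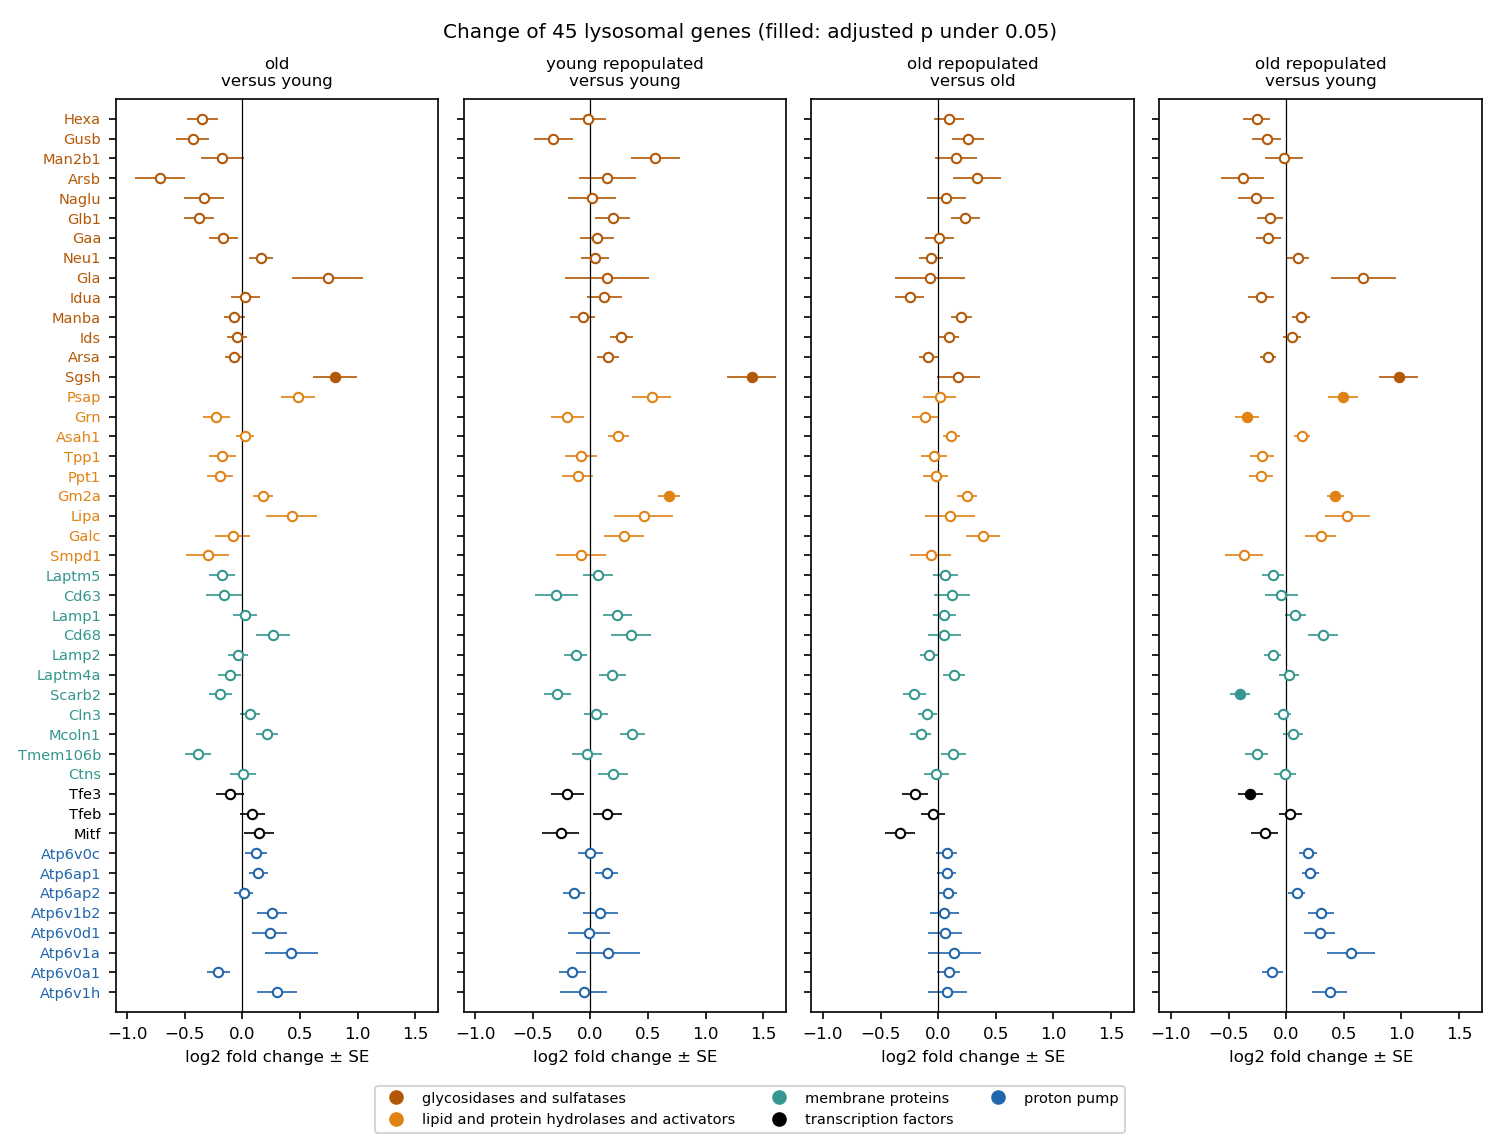
Log2 fold change with SE of the 45 members other than Atp6v0d2 in 4 comparisons, ordered by role. Filled points have an adjusted p under 0.05, and they are Sgsh in the 3 comparisons against Y, Gm2a in Y-re and O-re against Y, and Psap, Scarb2, Grn and Tfe3 in O-re against Y.

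Among the glycosidases and sulfatases, Sgsh (ENSMUSG00000005043.13, chr11:119343425-119355536, minus strand), whose product removes sulfate from heparan sulfate, was higher in every other group than in Y. Its CPM in Y were 16.1 at the lowest, 20.1 at the median and 22.2 at the highest. The Y-re libraries had 64.7, 43.5 and 46.2 CPM, the O libraries 16.8, 42.2, 50.6, 24.4 and 35.9, and the O-re libraries ran from 33.6 over a median of 36.2 to 49.4. Every Y-re and O-re library lay above every Y library, while 1 O library lay within the range of Y. Sgsh rose in Y-re by 1.40 ± 0.21 (adjusted p = 0.00195), in O by 0.80 ± 0.19 (adjusted p = 0.0218) and in O-re by 0.98 ± 0.17 (adjusted p = 0.00108), each against Y. In O the call was lost without O replicate 2 (0.74, adjusted p = 0.0517), replicate 3 (0.61, adjusted p = 0.149) or replicate 5 (0.78, adjusted p = 0.0632), and with only the O and Y libraries fitted (0.80, adjusted p = 0.0541). The interaction for Sgsh was −1.23 ± 0.28 (adjusted p = 0.336 in edgeR, 0.0268 in DESeq2 and 0.0294 in voom).

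No other glycosidase or sulfatase was called, and in O against Y 4 of these 14 genes had fold changes above 0, with a median of −0.12. Hexa, which encodes the alpha subunit of hexosaminidase A and was the most abundant of the class, had 1214 to 1467 CPM (median 1371) in Y, and 1093, 1189, 831, 1109 and 1078 in O. In CPM the 5 O libraries all lay below the 7 Y libraries, as in 0.78% of all genes, yet the fold change of −0.35 ± 0.13 missed the threshold (adjusted p = 0.187). In TPM the groups overlapped, with up to 1035 in O and down to 986.6 in Y. In O-re, Hexa spread from 776 over a median of 1087 to 1584 CPM, across the whole range of Y. Arsb, which desulfates dermatan and chondroitin sulfate, had a fold change of −0.71 ± 0.22 in O against Y (adjusted p = 0.0783), and Gusb, the beta-glucuronidase, had −0.43 ± 0.14 (adjusted p = 0.117). Man2b1, the lysosomal alpha-mannosidase, had 1144 to 1319.7 CPM in Y and 1788, 1825 and 1891 CPM in Y-re, without overlap (0.56 ± 0.21, adjusted p = 0.201). In O-re the range of Man2b1 was 689 to 1732 CPM with a median of 1299, below all Y-re libraries.

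Among the 9 lipid and protein hydrolases and their activators, Gm2a and Psap rose and Grn fell in O-re against Y. Gm2a (ENSMUSG00000000594.7, chr11:55098115-55113029, plus strand) encodes the activator that presents GM2 ganglioside to hexosaminidase A. Its CPM were 311 to 374 (median 336) in Y, 541, 581 and 510.5 in Y-re, and 416 to 516 (median 446) in O-re. The O libraries had 333, 379.5, 473, 329.8 and 402 CPM and overlapped both Y and O-re. Gm2a rose by 0.68 ± 0.10 in Y-re (adjusted p = 0.00115) and by 0.43 ± 0.08 in O-re (adjusted p = 0.00125), both against Y and without overlap, and its fold change in O-re against O was 0.25 ± 0.08 (adjusted p = 0.22). In the interaction Gm2a had −0.43 ± 0.13 (adjusted p = 0.423).

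Psap (ENSMUSG00000004207.14, chr10:60277627-60302597, plus strand) had 5239.8 to 6602 CPM (median 5392) in Y. The Y-re libraries had 9655, 7382 and 7250.2 CPM, the O libraries 5516, 7912, 10281, 6412 and 8963, and the O-re libraries 5944 to 10283 with a median of 7923. Psap rose in O-re against Y by 0.50 ± 0.13 (adjusted p = 0.0145), and it had 0.53 ± 0.17 in Y-re (adjusted p = 0.126) and 0.48 ± 0.15 in O (adjusted p = 0.0805). Grn (ENSMUSG00000034708.11, chr11:102430315-102437048, plus strand), whose product is taken up into lysosomes and split into granulins, ran from 3464 to 4451 CPM (median 4296) in Y and from 2559 to 4103 (median 3152) in O-re. The Y-re libraries had 3947, 3348 and 3592 CPM, and there were 3699, 3489, 3529.5, 3266 and 3860.2 CPM in O. Grn fell in O-re against Y by 0.34 ± 0.11 on the log2 scale (adjusted p = 0.0335), a call that was lost in 12 of the 23 fits that left out 1 library, without the filter on low counts (adjusted p = 0.0646), with an offset for effective transcript length (−0.27, adjusted p = 0.181) and with only these groups fitted (adjusted p = 0.082). For Lipa, the acid lipase, the fold change in O-re against Y was 0.53 ± 0.20 (adjusted p = 0.0687).

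**Figure D3:**
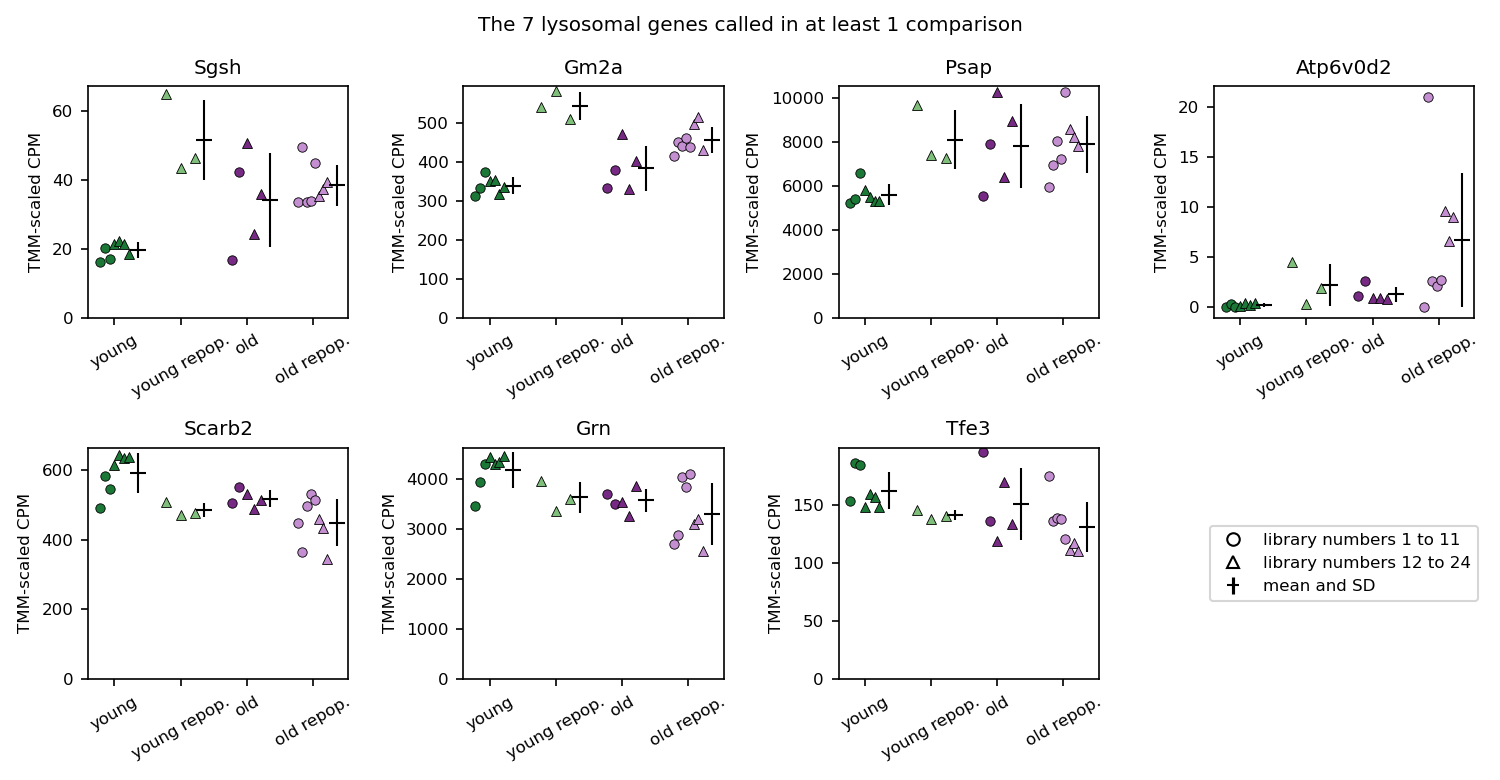
TMM-scaled CPM of the 7 members that were called in at least 1 comparison, per library, with the mean and SD of each group. Circles are library numbers 1 to 11 and triangles 12 to 24. All Y-re and O-re values of Sgsh and Gm2a lie above those of Y, whereas the other 5 genes overlap between O-re and Y.

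Of the 11 membrane proteins 1 was called. Scarb2 (ENSMUSG00000029426.8, chr5:92441314-92506833, minus strand), also named LIMP-2, carries glucocerebrosidase to the lysosome. It had 491 to 643 CPM (median 614) in Y, 508, 472 and 477 in Y-re, 505, 551, 529, 488 and 514 in O, and 345 to 531 (median 453) in O-re. The ranges overlapped, and Scarb2 fell in O-re against Y by 0.40 ± 0.09 (adjusted p = 0.00473). Lamp1 and Lamp2, the paired major glycoproteins of the lysosomal membrane, were not called in any comparison. Lamp1 had 1467 to 1884 CPM in Y and 2235, 1917 and 1955 in Y-re. Lamp2 had 889 to 1020.4 CPM in Y and 881, 874 and 872 in Y-re. In CPM every Y-re value of Lamp1 thus lay above Y and every value of Lamp2 below. In TPM Lamp1 overlapped, with 1651, 1432 and 1472 in Y-re and up to 1496 in Y, while Lamp2 stayed below Y. Laptm4a and Laptm5, related transmembrane proteins of late endosomes and lysosomes, had 269 to 331 and 2455 to 2795 CPM in Y, against 232 to 379 and 1876 to 3004 CPM in O-re. Mcoln1, the lysosomal cation channel, had a fold change of 0.36 ± 0.11 in Y-re against Y (adjusted p = 0.103), and the interaction for it was −0.52 ± 0.14 (adjusted p = 0.401). Cd68, a glycoprotein widely used to stain phagocytic microglia, had 549 to 910.1 CPM in Y, 1240.3, 846 and 953 in Y-re, 782, 957, 1052, 897 and 1081 in O and 671 to 1180.4 in O-re, with a fold change of 0.32 ± 0.13 in O-re against Y (adjusted p = 0.103). Tmem106b, linked to frontotemporal dementia together with progranulin, had −0.38 ± 0.11 in O against Y (adjusted p = 0.0672).

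In the proton pump, 8 of 9 genes had fold changes above 0 in O against Y (median 0.24) and in O-re against Y (median 0.29). All 9 did in O-re against Y-re (median 0.23) and in O-re against O (median 0.08), and 5 did in Y-re against Y (median 0.0005). Only Atp6v0d2 was called, in O-re against Y. With upper-quartile scaling these counts were, in the same order, 7, 8, 9, 9 and 4 of 9. The share of all genes above 0 was not counted. Atp6v0d2 (ENSMUSG00000028238.6, chr4:19876841-19922605, minus strand), the tissue-restricted form of the d subunit, was listed with 0 to 20 rounded counts in the Y libraries. It reached 0.438 CPM at the highest in Y, had 4.44, 0.244 and 1.88 CPM in Y-re, 1.06, 2.58, 0.862, 0.931 and 0.828 CPM in O, and 0.0408 to 21.04 CPM (median 4.66) in O-re. All O libraries lay above all Y libraries, as in 1.43% of all genes, while 1 O-re library with 2 counts lay within the range of Y. The gene rose by 4.98 ± 0.94 in O-re against Y (adjusted p = 0.00163), a value that rests on few counts in Y, and it had 2.57 ± 0.91 in O (adjusted p = 0.149) and 3.37 ± 1.0 in Y-re (adjusted p = 0.0967). Its ubiquitous relative Atp6v0d1 had 103 to 142 CPM (median 120.0) in Y, 134, 116 and 112 in Y-re, 121, 137, 191, 119 and 149.6 in O and 94.0 to 201 (median 158) in O-re. Allowing for length, the mean over all libraries was 145 TPM for Atp6v0d1 and 2.01 TPM for Atp6v0d2. Atp6v0c had 496 to 599.8 CPM in Y and 513 to 724 in O-re (0.19 ± 0.08, adjusted p = 0.114). Atp6v1a, the catalytic subunit that hydrolyses ATP, had 133 to 247 CPM (median 212) in Y, 286, 179 and 207 in Y-re, 166, 275, 386, 211 and 315 in O, and 131 to 435 (median 295) in O-re (O-re against Y 0.56 ± 0.21, adjusted p = 0.0694). Without O-re replicate 1, 7 of the 9 pump genes were called higher in O-re than in Y, in a fit that called 15.7% of all genes higher.

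**Figure D4:**
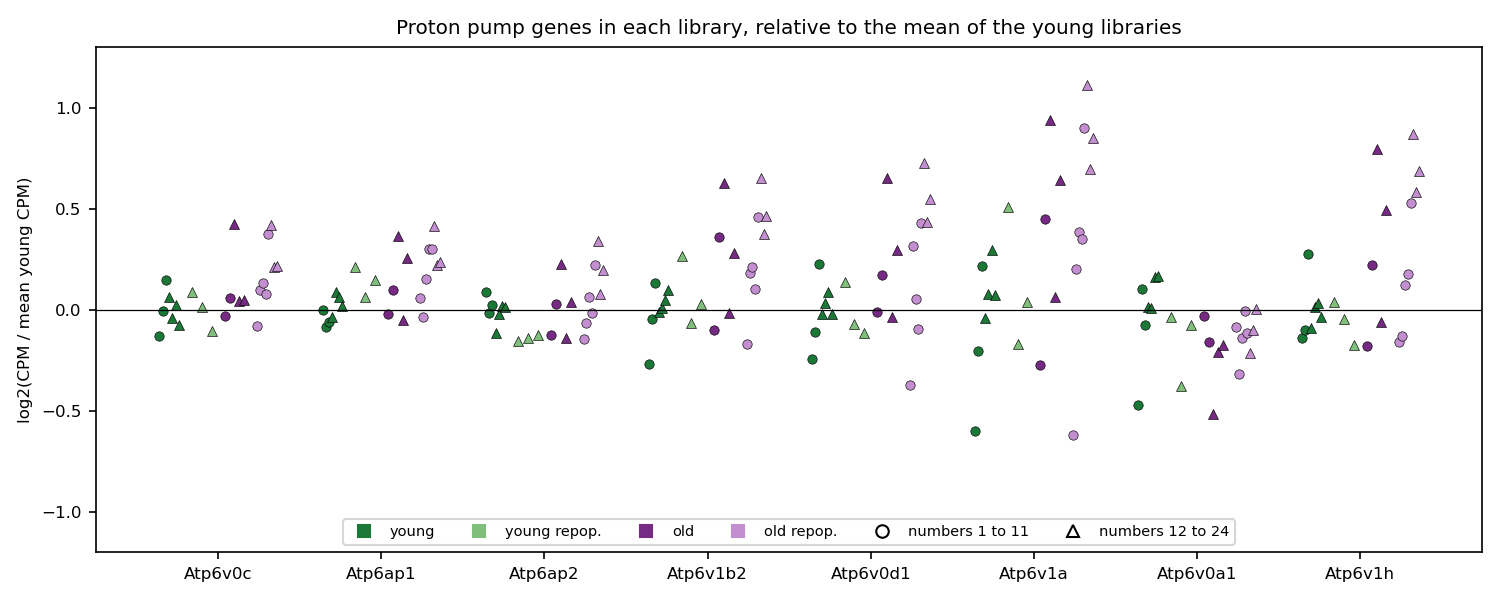
Log2 ratio of CPM to the mean of Y for 8 proton pump genes, without Atp6v0d2, with 1 point per library. The O-re libraries spread over a wider range than the Y libraries for each gene shown but Atp6v0a1, and for Atp6v1a the O-re values reach from below to above the range of Y.

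Of the 3 transcription factors, Tfe3 (ENSMUSG00000000134.17, chrX:7762560-7775202, plus strand) was called. It had 148 to 186 CPM (median 157) in Y, 146, 138 and 141 in Y-re, 195, 136, 119, 169 and 134 in O and 110.3 to 175 (median 129) in O-re. The Y-re libraries all lay just below the lowest Y library, and O and O-re overlapped Y. Tfe3 fell in O-re against Y by 0.31 ± 0.11 (adjusted p = 0.0497), and the call was lost in 19 of the 23 fits that left out 1 library, without the filter (adjusted p = 0.0773), with the length offset (adjusted p = 0.0729) and with only these groups fitted (adjusted p = 0.0525). Tfeb had 27.6 to 38.1 CPM in Y, 41.4, 35.7 and 32.8 in Y-re, 29.1, 33.3, 40.5, 37.4 and 34.9 in O and 27.5 to 44.6 in O-re, and was not called. Mitf had 36.7 to 60.0 CPM in Y, 40.5, 33.4 and 45.2 in Y-re, 56.1, 41.3, 53.1, 53.5 and 58.3 in O and 31.3 to 51.1 in O-re, and its fold change in O-re against O was −0.33 ± 0.13 (adjusted p = 0.317). Of the 11 members with TCACGTG in a promoter window, 1 (Sgsh) was called in each of the 3 comparisons against Y. Of the 31 members with windows but without it, 0 were called in O, 1 in Y-re and 5 in O-re, each against Y. The shares of all genes called were 2.83% in O, 1.34% in Y-re and 15.2% in O-re, and a link of calls to the motif was not tested.

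Apart from the test, the groups were compared for overlap of their libraries in TMM-scaled CPM. In O against Y, Atp6v0d2 was higher without overlap (2.17% of members, against 1.43% of all genes) and Hexa lower (2.17%, against 0.78%). In TPM Hexa overlapped between O and Y. In Y-re against Y, 9 members were higher in all 3 Y-re libraries than in any Y library (19.6%, against 5.97% of all genes). They were Man2b1, Sgsh, Ids, Asah1, Lipa, Psap, Gm2a, Lamp1 and Mcoln1, with Lipa apart only narrowly (257.9 CPM against 257.5). In TPM, Ids, Lipa, Lamp1 and Mcoln1 overlapped between Y-re and Y. The share of all genes without overlap in TPM was not counted. Lower without overlap in CPM were 3 members (6.52%, against 6.11%), namely Lamp2, Tfe3 and Atp6ap2. In O-re against Y, 2 were higher (Sgsh and Gm2a, 0.983% of all genes) and 0 lower (1.26%). In O-re against Y-re, 3 were lower (Man2b1, Arsa and Arsb, 1.05% of all genes) and 0 higher (1.21%). Between O-re and O no member was free of overlap (0.304% of all genes higher and 0.433% lower).

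Far more members were called when library numbers 12 to 24 were fitted alone than when numbers 1 to 11 were. The fit of 1 to 11 held 3 Y, 2 O and 5 O-re libraries, and Y replicate 3, which stood apart on the second principal component, was among them. A lack of calls in it therefore does not show that the differences are absent there. Within 12 to 24, O-re against Y called 32 members (69.6%, against 41.1% of all genes), 14 higher (21.9% of genes) and 18 lower (19.2%). Within 1 to 11 it called 0 (0.0107% of all genes), with 7 members at an unadjusted p under 0.05. For fits of a single run, here and below, the share of all genes at that unadjusted cut was not counted. The pump and the glycosidases lay on opposite sides in 12 to 24: all pump genes but Atp6v0a1 rose (8 of 9, median 0.48), whereas 8 of 14 glycosidases and sulfatases fell and 3 rose (median −0.40). Among pump genes the rises were 4.77 ± 0.70 for Atp6v0d2, 0.80 ± 0.19 for Atp6v1a, 0.75 ± 0.15 for Atp6v1h, a regulatory subunit, and 0.56 ± 0.13 for Atp6v0d1. Among the hydrolases, Smpd1, the acid sphingomyelinase, had −0.89 ± 0.14, Naglu, which acts on heparan sulfate, −0.78 ± 0.14, Man2b1 −0.62 ± 0.13 and Hexa −0.57 ± 0.13, while Gla had 0.87 ± 0.24, Sgsh 0.85 ± 0.20, Lipa 0.63 ± 0.17, Psap 0.59 ± 0.14 and Gm2a 0.51 ± 0.11. Of the membrane proteins 5 of 11 fell and none rose, with Tmem106b at −0.61 ± 0.07 and Scarb2 at −0.61 ± 0.09. With upper-quartile scaling, which moved the median of all genes from −0.02 to −0.13, the split of the called members was 10 higher and 24 lower, in a fit that called 41.2% of all genes (17.2% higher and 24% lower). There 5 of 9 pump genes were called higher, 2 of 14 glycosidases and sulfatases higher and 9 lower, and 9 of 11 membrane proteins lower.

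In library numbers 1 to 11 the same contrast had 1.14 ± 0.27 for Sgsh, 0.38 ± 0.11 for Gm2a, 0.42 ± 0.22 for Psap and 6.07 ± 1.84 for Atp6v0d2, against 0.48 ± 0.30 for Atp6v1a, 0.11 ± 0.18 for Atp6v1h, −0.07 for Smpd1, 0.04 for Naglu, 0.26 for Man2b1 and −0.01 for Hexa, none of them called. Of the 32 members called in 12 to 24 for O-re against Y, 19 had the same sign in 1 to 11. The same held for 11 of 16 in O against Y and for 5 of 5 in O-re against O. The matching share over all genes was not counted. In O against Y the fits called 16 members in 12 to 24 (34.8%, against 15.7% of all genes), 5 higher (10.4% of genes) and 11 lower (5.28%), and 0 in 1 to 11 (0.00533% of all genes; 2 members at an unadjusted p under 0.05). In O-re against O they called 5 members in 12 to 24 (10.9%, against 12.7% of all genes, 5.66% higher and 7.06% lower), which were Gusb (0.39), Galc (0.38) and Atp6v0d2 (3.26) higher and Idua (−0.39) and Mcoln1 (−0.38) lower, and 0 in 1 to 11 (0% of all genes; 1 member at an unadjusted p under 0.05). In Y-re against Y, measured only against the Y libraries of 12 to 24, 10 members were called, 7 higher and 3 lower (21.7%, against 9.3% of all genes, 5.41% higher and 3.89% lower). In O-re against Y-re, 26 were called there, 8 higher and 18 lower (56.5%, against 36.3% of all genes, 18.5% higher and 17.8% lower). The interaction called 4 members there (8.7%, against 8.87% of all genes, 4.11% higher and 4.75% lower), with Gusb at 0.86, Sgsh at −1.32, Man2b1 at −0.88 and Mcoln1 at −0.77. In the same 12 to 24 libraries the microglial markers summed to 20616 to 22599.8 CPM in Y and 6902 to 9785 in O-re, and the monocyte markers to 622 to 1329.8 CPM in Y and 3976 to 7326 in O-re. In 1 to 11 they summed to 18328 to 20731 and 9941 to 21132 CPM for microglia and to 278 to 1552 and 356 to 2272 CPM for monocytes. Their part in these differences, and the difference between the runs, were not tested.

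**Figure D5:**
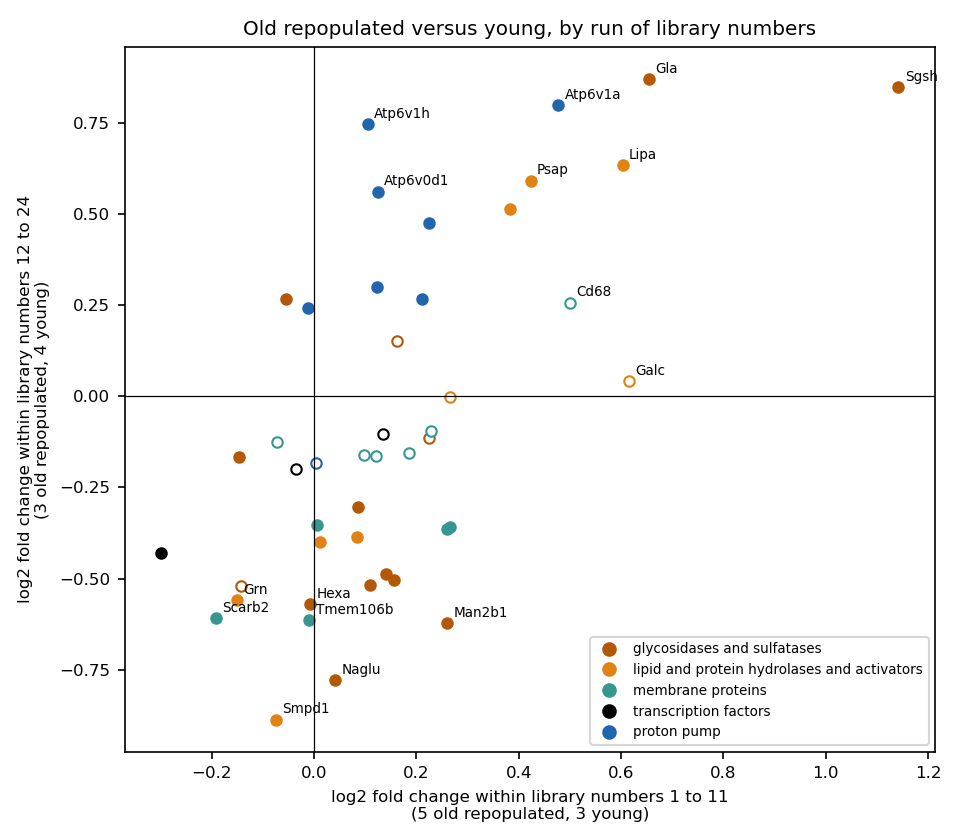
Log2 fold change of O-re against Y for the 45 members other than Atp6v0d2, within library numbers 1 to 11 on the horizontal axis and within 12 to 24 on the vertical axis. Filled points were called within 12 to 24, and Hexa, Naglu and Smpd1 lie near 0 on the horizontal axis and below it on the vertical axis.

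Of 101 further lysosomal genes in the tables, 93 passed the filter and were tested. In O against Y 3 rose and 1 fell (4.3% of those tested, against 2.83% of all genes), led by Acp5, an acid phosphatase of phagocytes and osteoclasts, at 3.61, Smpdl3a at 1.73 and Slc11a1, a metal ion exporter of phagosomes, at 0.42, and the gene that fell was Nagpa (−0.37). In Y-re against Y, Acp5 (2.74) and Slc11a1 (0.85) rose and no gene fell (2.15%, against 1.34% of all genes). In O-re against Y 15 rose and 11 fell (28.0%, against 15.2% of all genes), led by Acp5 at 3.89 ± 0.61, Rragb at 3.74 ± 1.08 and Smpdl3a at 1.56 ± 0.36. The genes with the most negative values, chosen after their values were seen, were Laptm4b (−0.72 ± 0.19), Cd164 (−0.66 ± 0.15) and the pump subunit gene Atp6v0a2 (−0.65 ± 0.16). Of the 12 further pump subunits tested, 3 rose and 1 fell in that comparison.

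Some counts are less certain than their spread shows. Exons of 12 members overlap exons of another gene, among them those of Sgsh with Card14 on the opposite strand (955 bases; Card14 had 0.139 CPM) and those of Grn with Fam171a2 (68 bases; 0.182 CPM), and whether counting used strand is not given in the sources used here. Arsb overlaps Gm26527 (83.9 CPM) over 1948 bases, Cln3 overlaps Apobr (74.3 CPM), Ppt1 overlaps Cap1 (748 CPM), and Glb1 overlaps Tmppe on the same strand over 165 bases. Processed copies of Cd63 and Atp6v0c are annotated, and reads can be divided between them and these members.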

How the data were processed

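Per the labels' protocols, between 2.4 and 147 ng RNA per library entered a stranded poly(A) kit, and single-end reads had 50 nt. The submitters' processing notes name FastQC 0.11.5, STAR, RSEM, limma and GRCm38, while other versions, the annotation and strand use in counting are not given here. The authors deposited 1 table per library with expected counts, which are estimates and need not be whole, TPM and effective lengths, per the file headers. Of the deposited expected counts 87.26% were whole within 1e-06 (74.0% among the members), and all were rounded before testing. No per-sample column was without a sample (0).

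In R 4.3.3, edgeR 4.0.16 kept 18720 genes by filterByExpr, scaled by TMM, and fitted all 23 libraries (43.66 to 58.19 M counts) with 1 coefficient per group. The quasi-likelihood test was applied to 6 contrasts, with Benjamini-Hochberg adjustment over all genes and calls under 0.05. The script was tested on simulated data. Replicates of a group differed beyond sampling noise (chi-square per degree of freedom 17.9 to 666 over 62 pairs), and so none was merged.

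Alternatives were DESeq2 1.42.0, RLE factors, upper-quartile factors, omitting the filter, requiring a mean CPM of 5, voom of limma 3.58.1 with sample weights, only the groups compared, an offset from the deposited effective lengths, the run of library numbers as a term, each run alone, and each library left out. Upper-quartile factors within library numbers 12 to 24 were added after seeing the data. Values were named for called members, the most abundant member per role, the 3 transcription factors, close relatives, and up to 3 called genes per contrast among other lysosomal genes, while any member could be named. Members, lists and markers were chosen with earlier results of these data known. Coordinates are from GENCODE M21 on GRCm38, where 45 of the 46 members had the identical identifier version, and promoter letters from RefSeq on GRCm38.p6.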

Additional observations from a re-analysis of the deposited data

Results flagged for a closer look

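Within groups of 4 to 10 libraries, 11 of 138 tests of a member in a group set 1 library apart from the rest by the gap to its nearest neighbour, where chance gives about 1 in 20. In Y, replicate 3 was apart in 4 genes: it had 133 CPM of the sialidase Neu1 (others 87.0 to 105), 74.2 of the iduronate sulfatase Ids (others 101 to 110.5), 33.4 of Smpd1 (others 43.3 to 48.3) and 76.1 of Atp6v1h (others 57.0 to 64.2). That library also stood apart on the second principal component of all genes. Y replicate 1 had 65.3 CPM of Cln3, whose loss causes a juvenile storage disease, against 78.7 to 87.8 in the others. In O, replicate 2 had 783 CPM of Cd63 (others 625 to 670.0) and 2.58 CPM of Atp6v0d2 (others 0.828 to 1.06), and replicate 3 had 726 CPM of Atp6v0c (others 531 to 564). In O-re, replicate 1 had 525 CPM of Gusb (others 779.7 to 999) and 175 CPM of Tfe3 (others 110.3 to 139), and replicate 2 had 21.04 CPM of Atp6v0d2 (others 0.0408 to 9.58).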

How the results depend on the processing

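No paired analysis was possible because the labels give no replicate numbers: the library numbers in the titles are all different, and the replicate numbers used here only name libraries in accession order. Counts of called members (in parentheses the percent of all genes called in the same fit, for DESeq2 of those with an adjusted p), with 1, 0, 2, 7, 0 and 0 in the order O against Y, O-re against O, Y-re against Y, O-re against Y, O-re against Y-re and interaction, moved as follows. Voom gave 13 (12.6%), 1 (2.21%), 9 (13.8%), 30 (35.5%), 15 (17%) and 3 (0.807%). DESeq2 gave 5 (5.75%) in O against Y, 4 (4.53%) in Y-re against Y and 1 (0.285%) in the interaction. With the run of library numbers as a term there were 2 (3.3%) in O against Y, 4 (1.74%) in Y-re against Y, 16 (24.5%) in O-re against Y and 1 (4.52%) in O-re against Y-re. With only the groups compared there were 2 (4.09%) in O against Y, neither of them Sgsh, and 6 (7.5%) in Y-re against Y, and that setting does not apply to the interaction. Library numbers 1 to 11 alone gave 0 in O against Y and in O-re against Y. Numbers 12 to 24 alone gave 16, 5, 10, 32, 26 and 4, and with upper-quartile factors 17 (16.6%), 8 (12.7%), 10 (9.15%), 34 (41.2%), 27 (36.4%) and 4 (8.75%). Leaving out 1 library gave 0 to 4 in O against Y, 2 to 4 in Y-re against Y, 5 to 19 in O-re against Y and 0 in the others. In O against Y the count moved by over 1.5 times without Y replicate 1, O replicates 1, 2, 3 or 5, or O-re replicates 1 or 8, and in the other comparisons with calls without O-re replicate 1. Signs reversed for Atp6v0a1 in O against Y within 1 to 11 (0.032, adjusted p = 1), Ppt1 in O-re against Y within 1 to 11 (0.011, adjusted p = 0.992) and Galc in O-re against Y with upper-quartile factors in 12 to 24 (−0.072, adjusted p = 0.593). The cause was not tested. Reversals were sought only among members with an unadjusted p under 0.05 for that comparison in edgeR's fit of all 23 libraries with TMM scaling. Over those members and the alternatives, 1942 values kept direction and side of the threshold, 178 newly passed it, 49 no longer did and 3 reversed. Members outside this selection are not in these counts. Of the 32 members called in O-re against Y within 12 to 24, 19 had the same sign in 1 to 11, as had 11 of 16 in O against Y and 5 of 5 in O-re against O. The matching share over all genes was not counted. The counts of Atp6v0d2 in Y are near 0, and depth limits what can be read from its fold change.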
